A study of Mus musculus with 3 samples.

Results

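The report concerns 10 antiviral genes of the type I interferon response, Isg15, Ifit1, Ifit3, Usp18, Oasl1, Oasl2, Irf7, Mx1, Rsad2 and Bst2, in CD4+ T cells labelled Th1. They were taken by symbol, and all 10 were found among 23337 gene symbols. The mice were wild-type C57/Bl6j, 7 weeks old. Lymphoid cells gave 2 libraries, titled spleen and labelled as spleen, lymph nodes and draining lymph nodes, and B16-F10 tumours, which grow from a transplantable melanoma line of the same strain, gave 1. No further treatment or allele is labelled. The labels do not say how Th1 cells were told from other CD4+ cells, or whether the libraries came from separate or pooled animals, so that the p-values reflect only how far these libraries lie apart, possibly for technical reasons.

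Type I interferons are cytokines secreted during infection, mostly by cells that sense foreign nucleic acid. They bind the receptor IFNAR, whose kinases JAK1 and TYK2 signal to the nucleus, where transcription of antiviral genes is turned on through the interferon-stimulated response element (ISRE) in their promoters. In T cells the same genes mark exposure to interferon, and many respond to interferon gamma as well.

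The core of the ISRE, searched as GAAANNGAAA on both strands with overlapping matches allowed, lies close to the start of several of the genes. RefSeq promoter sequences (GRCm38.p6) were found for 8 of the 10 genes, those other than Usp18 and Mx1. In the 250 bases before the start, 5 of these 8 held the core, against 2.98% of all 32851 promoters in the table. The stretches are shown because this element is the shared control of the pathway. After the scaling described below, Isg15, Ifit3, Bst2 and Rsad2 lay above both lymphoid libraries in the tumour library, and Ifit1 below both. The changes of Ifit1, Ifit3, Bst2 and Rsad2 did not reach significance, so a difference in direction between the 5 genes is not established. Each stretch is printed along the gene's own strand with the matches in capitals. Matches on the opposite strand appear as their reverse complement.
Isg15 (chr4:156200845-156200926, minus strand): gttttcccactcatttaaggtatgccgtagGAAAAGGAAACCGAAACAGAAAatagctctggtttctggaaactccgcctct
Ifit1 (chr19:34640755-34640843, plus strand): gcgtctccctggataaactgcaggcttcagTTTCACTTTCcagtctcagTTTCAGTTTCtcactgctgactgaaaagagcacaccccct
Ifit3 (chr19:34583343-34583446, plus strand): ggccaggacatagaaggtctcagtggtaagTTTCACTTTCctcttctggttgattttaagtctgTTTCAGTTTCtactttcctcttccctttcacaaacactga
Rsad2 (chr12:26456533-26456602, minus strand): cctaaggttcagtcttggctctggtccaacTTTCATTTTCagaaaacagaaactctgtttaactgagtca
Bst2 (chr8:71537557-71537632, minus strand): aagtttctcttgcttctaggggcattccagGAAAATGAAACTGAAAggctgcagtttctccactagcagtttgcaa
Isg15 held 3 overlapping matches between 57 and 78 bases before its start, and Bst2 2 overlapping ones between 115 and 130. Ifit1 and Ifit3 each held 2 separate matches, in both genes with the same letters and in the same order. Rsad2 held 1, from 111 to 120 bases before the start. The windows of Irf7, Oasl1 and Oasl2 did not hold these letters.

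Levels are given as FPKM (fragments per kilobase of transcript, normalised to sequencing depth, a unit inferred from the files) divided by a median-of-ratios size factor for each library, and are called scaled FPKM. Estimated from the smallest steps between low values, the depth was about 11400000 and 15420000 fragments in the lymphoid libraries and 3250000 in the tumour library. The median change of all tested genes, tumour minus lymphoid, was -0.96 on the log2 scale as deposited. Scaling removed this shift (median -0.01), so directions below are relative to the median gene. Odorant and vomeronasal receptor genes, silent in T cells, averaged 0.0583, 0.1 and 0.662 scaled FPKM over 1440 genes, with medians of 0, 0.0284 and 0. The higher mean of the tumour library thus came from a minority of these genes, while most were listed at 0 or close to it.

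After scaling, the tumour library held more Oasl2, Isg15 and Oasl1 RNA (Oasl1 lay on the lower side as deposited) and less Usp18 and Mx1 RNA than the lymphoid libraries. Of these 5 calls, those of Isg15, Oasl1, Usp18 and Mx1 were lost once the counting error of the shallow tumour library was added (limma adjusted p = 0.111, 0.457, 0.31 and 0.32). The call of Oasl2 was kept with that error added, but was lost when the shortest coding transcript also served as gene length. Changes are log2 of scaled FPKM plus 1, tested with limma over 9800 genes with Benjamini-Hochberg adjustment, and called at an adjusted p under 0.05. All 10 genes passed the filter of a mean of at least 1 FPKM. Of them 3 were called higher and 2 lower, where 12.7% of all tested genes were called higher and 9.17% lower. The median change of the 10 genes was 0.55, within a range from -0.94 to 1.41. The tumour value lay above both lymphoid values for 7 of the 10 genes and below both for 3, against 41.3% and 42.6% of all tested genes. It was at least 2-fold above each lymphoid library for Isg15 and Oasl2, and at least 2-fold below each for Usp18. Over all tested genes those shares were 8.76% and 6.32%. Just outside this fold lay Oasl1 (2.00-fold and 2.15-fold higher) and Mx1 (1.99-fold and 1.82-fold lower).

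**Figure D1:**
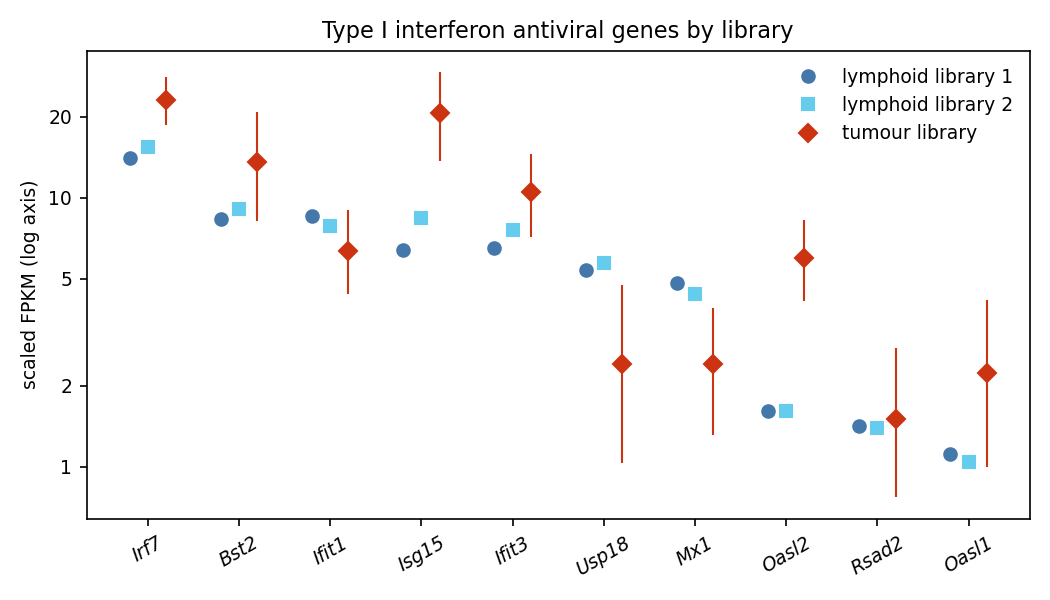
Scaled FPKM of the 10 genes in each library (log axis), ordered by the lymphoid mean. Points are single libraries and vertical lines give the 95% Poisson interval of each tumour point. Isg15 and Oasl2 in the tumour library lie well above both lymphoid points, and Usp18 and Mx1 lie below them.

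The first group of genes serves ISG15, a ubiquitin-like protein that is attached to other proteins during infection. Isg15 (chromosome 4, 156199424 to 156200818, GRCm38) stood at 6.39 and 8.39 scaled FPKM in lymphoid libraries 1 and 2 and at 20.6 in the tumour library. The tumour value was the highest of the 3, while the lymphoid libraries were further apart for this gene (1.31-fold) than for any other of the 10. Isg15 rose by 1.37 (SE 0.20, limma adjusted p = 0.00935). It rested on about 29 tumour fragments, for a 95% Poisson interval of 13.6 to 29.3 that covers counting error only.

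Usp18, the protease that removes ISG15 from its targets and also blocks signalling at IFNAR2 (chromosome 6, 121245906 to 121270917), moved the other way. It stood at 5.40 and 5.72 scaled FPKM in the lymphoid libraries and at 2.41 in the tumour library. The lymphoid values were close together and both lay above the tumour value. Usp18 fell by 0.94 (SE 0.15, limma adjusted p = 0.0109), on about 8 tumour fragments against 141 and 208 in the lymphoid libraries. Its tumour interval of 1.04 to 4.73 ended below both lymphoid values, but it takes the longest coding transcript as gene length. With counting error added, the SE of the change was 0.388 at that length and 0.695 with the shortest coding transcript. A wider interval would thus follow from the shorter length. Usp18 overlaps Gm44148 on the opposite strand. The libraries were stranded, but it is not stated whether counting used strand, so their reads may not have been told apart.

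Of the enzymes that attach ISG15, a list of 4 genes, 1 was called higher and 0 lower (0 also at an unadjusted limma p under 0.05). Over all tested genes 12.7% were called higher and 9.17% lower. Ube2l6, the conjugating enzyme, stood at 4.06 and 3.64 scaled FPKM in the lymphoid libraries and at 16.5 in the tumour library. It rose by 1.85 (SE 0.16, limma adjusted p = 0.00157), more than any of the 10 genes. Uba7, the activating enzyme and the most abundant of the 4, was at 14.1, 12.5 and 10.7 and was not called. The ligase Herc6 was at 6.23, 5.78 and 5.45 and was not called either.

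The OAS-like genes encode proteins related to the 2'-5' oligoadenylate synthetases, which sense double-stranded RNA and turn on RNase L. In the mouse, OASL2 keeps synthetase activity, whereas OASL1 lacks it and restrains translation of Irf7 mRNA. Oasl2 (chromosome 5, 114896936 to 114912234) stood at 1.62 and 1.61 scaled FPKM in the lymphoid libraries and at 5.97 in the tumour library, an increase of 3.68-fold and 3.71-fold. The lymphoid values were nearly equal and lay below the tumour interval of 4.15 to 8.28, which takes the longest coding transcript as gene length. With counting error added, the SE of the change was 0.254 at that length, where Oasl2 was still called. With the shortest coding transcript the SE was 0.486, and Oasl2 was not called. Oasl2 rose by 1.41 (SE 0.14, limma adjusted p = 0.00287), on about 35 tumour fragments.

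Its neighbour on the same strand, Oasl1 (chromosome 5, 114923240 to 114937915), stood at 1.12 and 1.04 in the lymphoid libraries and at 2.24 in the tumour library. Oasl1 rose by 0.64 (SE 0.16, limma adjusted p = 0.0404), but on about 9 tumour fragments, and its interval of 1.00 to 4.16 reached the lymphoid values. In the tumour library 2.01% of the receptor genes had a value as high or higher. Oasl1 overlaps the antisense gene Gm13822, with the same limit on telling reads apart as Usp18.

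Irf7 encodes the transcription factor that amplifies production of interferon alpha. It had the highest value of the 10 genes in every library (chromosome 7, 141262706 to 141266481). Irf7 stood at 14.0 and 15.4 scaled FPKM in the lymphoid libraries and at 23.0 in the tumour library. The tumour value lay above both lymphoid values, 1.64-fold and 1.49-fold. The log2 change was 0.61 (SE 0.17), which was not called (limma adjusted p = 0.0572), although Irf7 had the most tumour fragments of the 10, about 97. Irf7 overlaps Phrf1 on the opposite strand, with the same limit on telling reads apart. The ratio of Oasl1 to Irf7 was 0.0800 and 0.0675 in the lymphoid libraries and 0.0972 in the tumour library. This ratio carries the counting error of about 9 Oasl1 tumour fragments, and a difference in it was not tested.

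Of the IFIT proteins, IFIT1 binds viral RNA that lacks the host's cap methylation. Ifit1 (chromosome 19, 34640871 to 34650009) stood at 8.56 and 7.86 scaled FPKM in the lymphoid libraries and at 6.32 in the tumour library. Ifit3, in the same cluster (chromosome 19, 34583531 to 34588731), stood at 6.51 and 7.60 and at 10.5. Ifit1 was the more abundant of the pair in both lymphoid libraries and Ifit3 in the tumour library, where their ratio (Ifit3 over Ifit1) was 1.66 against 0.76 and 0.966. The tumour intervals of Ifit1 (4.38 to 9.03) and Ifit3 (7.17 to 14.5) overlapped, so the order of these genes in the tumour library is not settled. Neither was called, with changes of -0.33 (SE 0.16, limma adjusted p = 0.189) and 0.51 (SE 0.17, limma adjusted p = 0.0871), although their promoters share the paired ISRE cores shown above. Of the 75-base windows of the Ifit3 transcript, 41.1% occur unchanged in Ifit3b, so that the split of reads between these genes is uncertain. For Ifit1 5.19% of windows were shared, with Ifit1bl2.

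The last 3 genes act directly on viruses. Mx1 encodes a dynamin-like GTPase that blocks influenza virus, and most inbred mouse strains, C57BL/6 among them, carry an allele that makes no working protein. It stood at 4.82 and 4.40 scaled FPKM in the lymphoid libraries and at 2.42 in the tumour library (chromosome 16, 97447035 to 97462907). The tumour value lay below both lymphoid values. Mx1 fell by 0.71 (SE 0.15, limma adjusted p = 0.0259), on about 15 tumour fragments, with an interval of 1.32 to 3.88.

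Rsad2, which encodes viperin, an enzyme that makes a chain-terminating nucleotide, stood at 1.42 and 1.40 scaled FPKM in the lymphoid libraries and at 1.50 in the tumour library (chromosome 12, 26442746 to 26456452). All 3 values were close, and the change was 0.05 (SE 0.15, limma adjusted p = 0.83). At about 11 tumour fragments, the interval of 0.771 to 2.76 held both lymphoid values, so a difference was not detected at this depth. In the tumour library 4.79% of receptor genes were at least as high.

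Bst2 encodes tetherin, which holds budding virus at the cell surface and is also a marker of plasmacytoid dendritic cells. It stood at 8.35 and 9.11 scaled FPKM in the lymphoid libraries and at 13.5 in the tumour library (chromosome 8, 71534255 to 71537456). The tumour value lay above both, but its interval of 8.19 to 20.7 reached the lymphoid values. The change of 0.58 (SE 0.16) was not called (limma adjusted p = 0.0568). Siglech, a defining marker of plasmacytoid dendritic cells, was at 0.330, 0.191 and 0.336 scaled FPKM. It rested on about 1 tumour fragment, with an interval of 0.00584 to 1.29. The list of 9 dendritic and plasmacytoid dendritic markers summed to 1.21, 1.17 and 3.91. Of these markers 7 lay above both lymphoid libraries in the tumour library. The part of such cells in the Bst2 values was not tested.

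**Figure D2:**
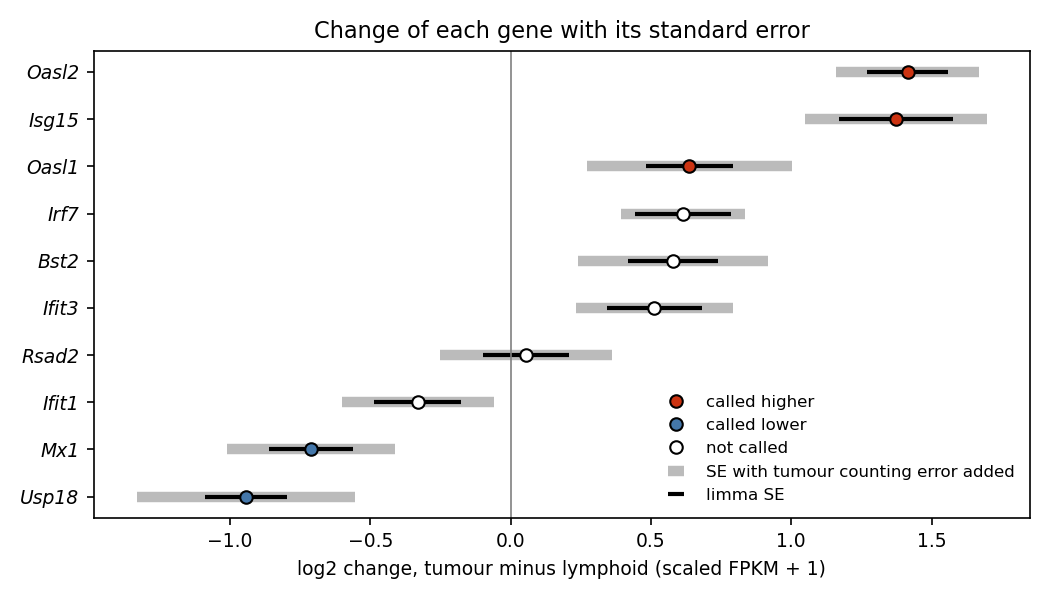
Log2 change (tumour minus lymphoid) of the 10 genes. Black lines are the limma standard error and grey bars the standard error with the tumour library's counting error added. The changes run from -0.94 for Usp18 to 1.41 for Oasl2, and the grey bars are widest for Usp18 and Oasl1, the genes with the fewest tumour fragments.

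The tumour library's own counting error is not in these tests, which take their spread from the lymphoid libraries alone. When it was added to the standard error, 3.61% of the 9708 genes with a transcript length were called higher and 0.33% lower. Of the 10 genes, Oasl2 alone was then called (limma adjusted p = 0.0488). With the shortest in place of the longest coding transcript as gene length, the adjusted p of Oasl2 was 0.348 and 0 of the 10 were called (2 higher and 0 lower at an unadjusted p under 0.05). With the shortest coding transcript the SE of Mx1 was 0.705, against 0.299 with the longest, so its interval also depends on that length. An exact permutation of 3 libraries into 2 and 1 cannot give a p below 0.333.

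The ratio of a pair of genes within a library needs no scaling between libraries, but it carries the counting error of both genes, and Usp18 and Mx1 rest on about 8 and 15 tumour fragments. For each Usp18 unit of FPKM there were 1.18 and 1.47 units of Isg15 in the lymphoid libraries and 8.55 in the tumour library. Oasl2 to Usp18 stood at 0.30 and 0.281 and at 2.48. Oasl2 to Mx1 stood at 0.336 and 0.365 and at 2.46. In contrast Irf7 to Bst2 was 1.68, 1.69 and 1.70, and Mx1 to Usp18 was 0.893, 0.77 and 1.01. Of all 45 pairs, 21 differed at least 2-fold between the tumour library and each lymphoid library (46.7%), where 26.7% of all pairs of tested genes above 0 in every library did. Between the 2 lymphoid libraries 0 pairs differed by that much, and the largest difference was 1.44-fold, where 4.10% of all pairs differed at least 2-fold. The pairs are built from the same 10 genes and so are not independent, and most of the 21 held Usp18, Mx1, Oasl2 or Isg15. These ratios have no test, and the named pairs were chosen after their values were seen.

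As shares of the summed FPKM of the 10 genes, Isg15 made up 11.0% and 13.4% in the lymphoid libraries and 23.3% in the tumour library. Usp18 went from 9.27% and 9.14% to 2.72%, Mx1 from 8.28% and 7.04% to 2.74%, and Ifit1 from 14.7% and 12.6% to 7.14%. The shares of Irf7 (24.1%, 24.7% and 26.0%), Bst2 (14.4%, 14.6% and 15.3%) and Ifit3 (11.2%, 12.2% and 11.8%) differed little between libraries. In order of level, Isg15 was the fourth of the 10 by its lymphoid mean and the second in the tumour library, while Usp18 went from the sixth place to the eighth. The tumour interval of Isg15 (13.6 to 29.3) overlapped those of Irf7 (18.7 to 28.1) and Bst2 (8.19 to 20.7). That of Usp18 (1.04 to 4.73) overlapped those of Mx1 (1.32 to 3.88) and Oasl1 (1.00 to 4.16), so these tumour places are not settled. Neighbours in the lymphoid order from Bst2 to Ifit3 (8.73 ± 0.533 to 7.05 ± 0.773, SD, n = 2) overlapped in their spread with Ifit1 (8.21 ± 0.494) and Isg15 (7.39 ± 1.42) between them, so that their order is not settled.

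**Figure D3:**
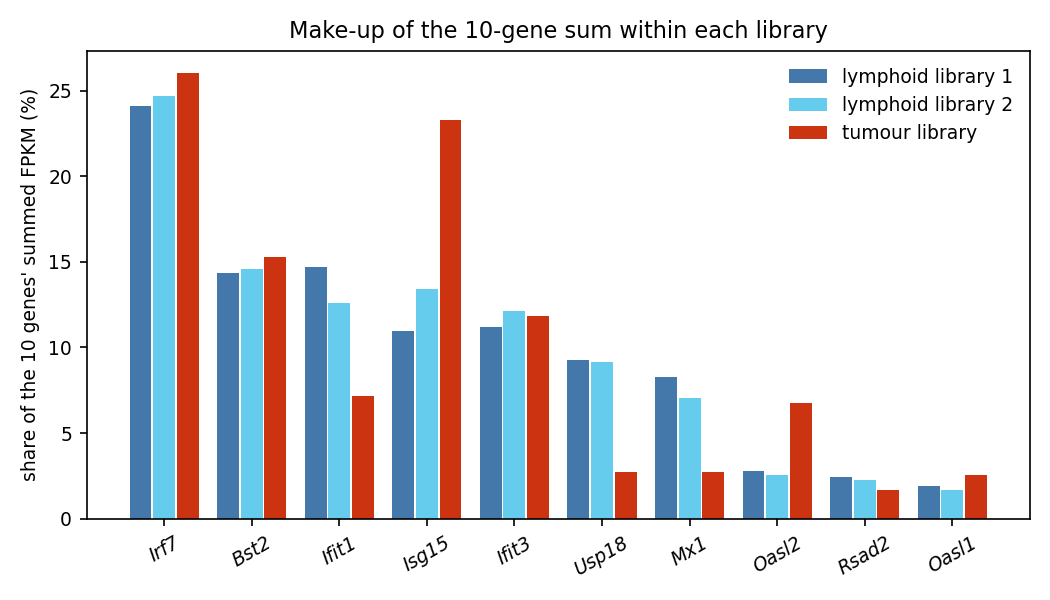
Share (%) of each gene in the summed FPKM of the 10 genes, by library, with bars starting at 0. In the tumour library Isg15 reaches 23.3% and Usp18 and Mx1 stand at 2.72% and 2.74%, while the bars of Irf7, Bst2 and Ifit3 are of similar height in all 3 libraries.

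The direction of some changes hung on the scaling. The fitted change was above 0 for Oasl2 and Isg15, and below 0 for Usp18 and Mx1, under all 5 scalings run. With library totals, however, Usp18 (-0.34, limma adjusted p = 0.336) and Mx1 (-0.12, limma adjusted p = 0.742) were not called. As deposited, without scaling, 1 of the 10 genes (Oasl2) was called higher and 7 lower, where 4.74% of all tested genes were called higher and 77.8% lower. There Isg15 was at 8.26, 11.2 and 11.9 FPKM and was not called (limma adjusted p = 0.271), and Oasl1, Irf7, Bst2, Ifit3 and Rsad2 lay on the lower side. With library totals, 6 were called higher and 0 lower (0 at an unadjusted limma p under 0.05), against 44.6% and 2.85% of all tested genes, and Ifit1 lay on the higher side. Small RNA rows held 81.1%, 83.5% and 67.5% of those totals. With totals that leave such rows out, Isg15 and Oasl2 were called higher and Usp18 and Mx1 lower, against 11.2% and 11.4% of all tested genes, and Oasl1 was not called (limma adjusted p = 0.0534).

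**Figure D4:**
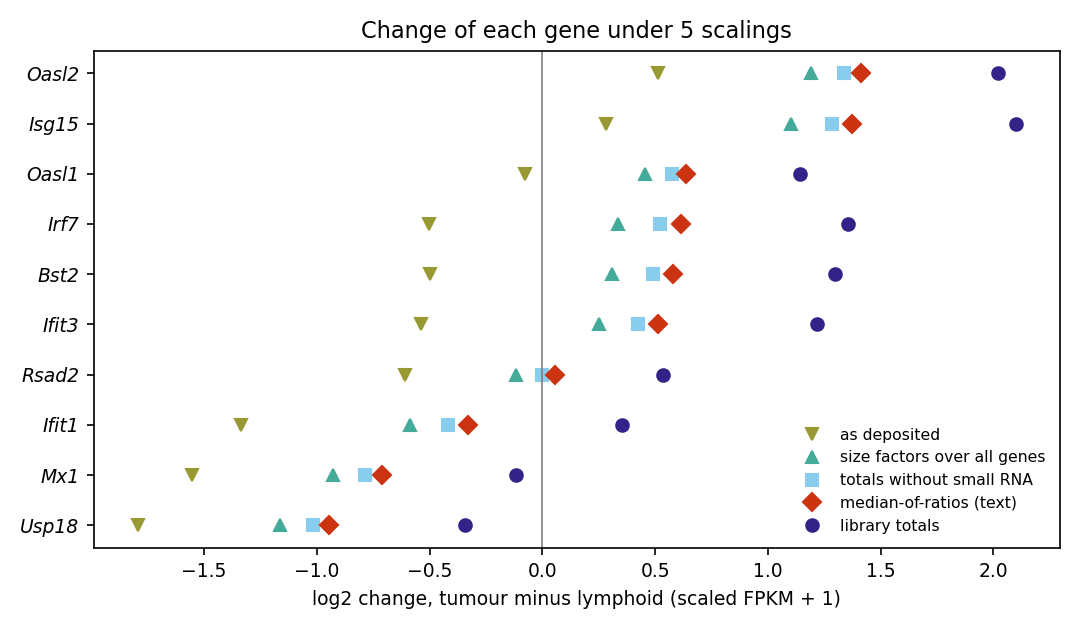
Log2 change (tumour minus lymphoid) of each gene under 5 scalings of the libraries. Each scaling shifts the genes together and leaves their order nearly as it was; Oasl2 and Isg15 stay on the right of 0 and Usp18 and Mx1 on the left, while Rsad2, Ifit1, Ifit3, Bst2, Irf7 and Oasl1 cross it.

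Among the other genes of the interferon system, calls were no more frequent than among all genes. Of 87 tested genes in the lists, 9 (10.3%) were called higher and 5 (5.75%) lower, against 12.7% and 9.17% of all tested genes, and their median change was -0.11. As deposited 1 was called higher and 77 lower, and with library totals 31 and 0, so that the directions given for these lists hold for the scaled values. With counting error added, Ube2l6 and the GTPase gene Gbp5 were left. Among 11 tested genes of the IFIT, OAS and MX families outside the 10, Oas2 rose by 0.68 (limma adjusted p = 0.0359) and Oas1b, whose C57BL/6 allele encodes a truncated protein, fell by 0.67 (limma adjusted p = 0.0293). The most abundant of them, Ifit1bl1, was at 26.8, 24.7 and 16.9 scaled FPKM and was not called. Mx2 was at 1.42, 1.50 and 1.41 and Ifit2 at 7.63, 7.84 and 6.93.

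Of 34 tested genes of other antiviral effectors, 3 were higher and 3 lower (8.82% each, against 12.7% and 9.17% of all tested genes), and the median was -0.17. Shfl, which blocks programmed ribosomal frameshifting, rose by 1.17 (limma adjusted p = 0.00651), from 6.07 and 6.38 to 15.3. The exonuclease gene Isg20 rose by 0.90 and Ifi27 by 0.66. Cmpk2, a nucleotide kinase gene next to Rsad2 that is usually induced with it, fell by 0.78 (limma adjusted p = 0.0305), on about 3 tumour fragments. Phf11b fell by 0.70 and Trim30d by 0.59. Sp100, the most abundant of the list, was at 79.3, 71.7 and 73.2 and was not called. None of the 6 calls held once counting error was in the test, where 0 were called (3 genes of the list were higher and 0 lower at an unadjusted limma p under 0.05).

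Upstream of these genes the share of calls was near that of all tested genes, of which 12.7% were higher and 9.17% lower. Of 8 tested sensors of nucleic acid, 1 was higher, Eif2ak2, the gene of the double-stranded RNA-activated kinase PKR, at 5.85 and 5.31 and at 11.0 (change 0.87, limma adjusted p = 0.0166). Tlr9, an endosomal receptor for DNA that was under the filter and so not tested, was at 0.0192, 0.0135 and 2.39 scaled FPKM, on about 16 tumour fragments. Zbp1, the most abundant sensor gene, was at 33.5, 34.2 and 27.4 and was not called. Of 7 receptor and signalling genes, Ifnar1 was called higher (8.25 and 8.02 to 13.1, change 0.63, limma adjusted p = 0.0411). The other receptor chain, Ifnar2, was at 16.8, 15.4 and 11.3 and was not called. Jak1, the most abundant, was at 72.7, 68.9 and 62.7. Of the 7 other interferon regulatory factor genes tested, 0 were called by limma (1 higher and 1 lower at an unadjusted p under 0.05), and Irf1, the most abundant, was at 37.5, 41.0 and 45.2.

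Of 20 type I and III interferon genes none reached the filter. In the tumour library 18 were listed at 0, among them Ifnb1, and 8 were at 0 in all 3 libraries. Of the other two, Ifnz was at 0.307, 0.359 and 1.99 scaled FPKM, on about 5 tumour fragments, and Ifna16 at 0, 0.0254 and 2.12, on about 4. Both lay highest in the tumour library, at a few fragments and with no test.

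The interferon gamma induced GTPases, which attack the vacuoles of intracellular pathogens, had calls at a share near that of all tested genes. Of 16 tested, 2 were higher (12.5%) and 1 lower (6.25%), against 12.7% and 9.17% of all tested genes, with a median of 0.02. Gbp5 rose by 1.36 (limma adjusted p = 0.00571) and Gbp2 by 0.68, and Ifi47 fell by 0.95 (limma adjusted p = 0.0326). Igtp, the most abundant, was at 33.5, 33.9 and 34.0 and was not called. The difference between these genes and the 10 genes was not tested.

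**Figure D5:**
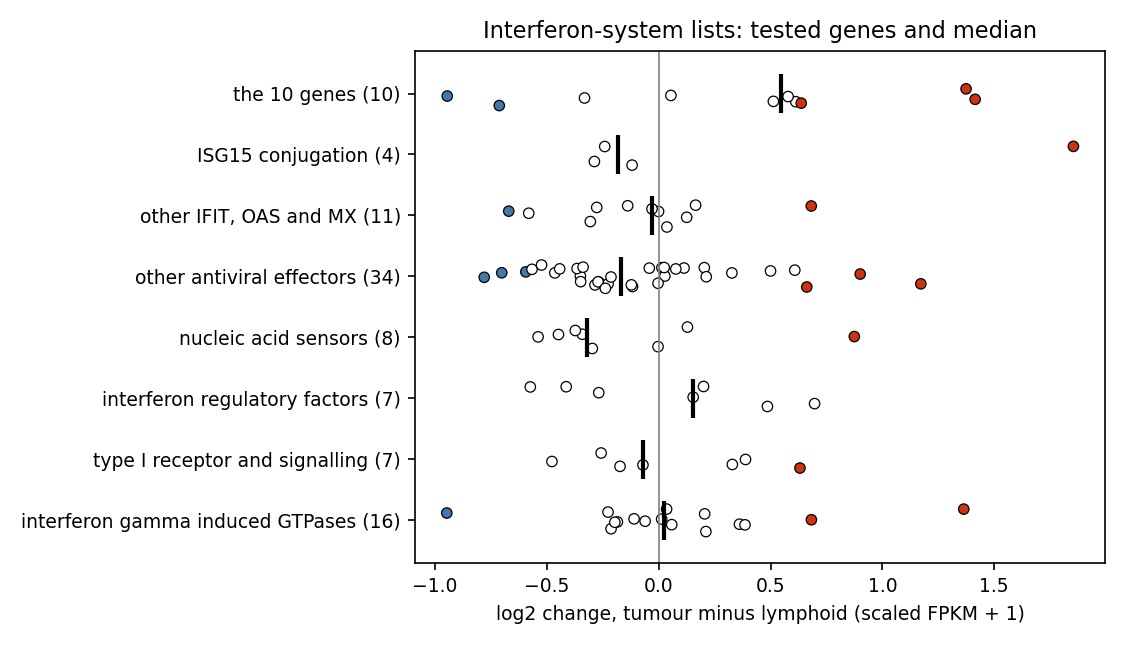
Log2 change (tumour minus lymphoid) of every tested gene of the 10 genes and 7 lists, with the number tested in brackets. Filled points were called (red higher, blue lower), open points were not, and bars mark medians. The median of the 10 genes is 0.55, and those of the lists lie between -0.32 and 0.15.

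By the distance between centred log2 values over the 3 libraries, the tested genes most like Oasl2 were Rabl5, Wfdc13 and Glrx2 (distances of 0.0261, 0.0301 and 0.0331). Those most like Usp18 were Emg1, Mettl10 and Hook1 (0.0151, 0.0197 and 0.0206). Within a distance of 0.1 lay 34 genes for Oasl2 and 79 for Usp18.

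The cells carried T cell RNA in all libraries. The summed level of 7 T cell markers was 655.5, 658.6 and 617.4 scaled FPKM, and that of 6 Th1 genes 154.2, 145.0 and 153.6. Within the Th1 list, Ifng, the gene of interferon gamma, fell by 1.28 (12.9 and 12.0 to 4.53, limma adjusted p = 0.00535). It rested on about 10 tumour fragments, and with their counting error the limma adjusted p was 0.206. The list of CD8 T and NK cells summed to 26.8, 24.5 and 24.4, but 4 of its 6 markers (Cd8b1, Cd8a, Ncr1 and Eomes) were above both lymphoid libraries. Cd8b1 was called higher (0.494 and 0.783 to 4.77, limma adjusted p = 0.00255, and 0.073 with counting error). Markers of macrophages and monocytes summed to 1.45, 1.23 and 9.64, with 8 of 10 above both lymphoid libraries in the tumour library. Itgam was called higher (1.01 and 0.674 to 3.95, limma adjusted p = 0.00578, and 0.0545 with counting error) and C1qa was at 2.55 in the tumour library, while Csf1r was at 0.133 and C1qb at 0 in all 3. Dendritic markers summed to 1.21, 1.17 and 3.91 (7 of 9 above both). Granulocyte markers summed to 0.391, 0.461 and 4.06 (2 of 5 above both), with S100a8, S100a9 and Elane at 0 in every library. Most of this was Cxcr2, which was called higher (0.391 and 0.443 to 3.45, limma adjusted p = 0.00244, and 0.0501 with counting error). Melanocyte markers summed to 1.35, 1.49 and 3.35 (4 of 7 above both), with Mlana at 0 in every library. Pmel, the most abundant of them, was at 0.798, 0.835 and 1.49 and was not called. B cell markers summed to 0.787, 0.53 and 1.35 (2 of 6 above both), with Ms4a1 at 0 in every library. Stroma and endothelium markers summed to 9.80, 9.02 and 9.26 (3 of 7 above both), most of it Pecam1. Erythroid markers summed to 2.06, 1.92 and 0.548 (1 of 4 above both). For scale, silent receptor genes averaged 0.0583, 0.1 and 0.662 scaled FPKM per gene. How much of the marker sums came from this background was not tested. For the values of the 10 genes, the part of other cell types, of Ifng and of the higher background was not tested either. In bulk RNA, fewer cells that express a gene and less RNA per cell cannot be told apart.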

How the data were processed

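Per the labels' protocols, total RNA of 300000 cells was depleted of ribosomal RNA and sequenced in pairs from stranded libraries. Per the submitters' processing notes, mm10, kallisto and DESeq2 were named, without roles or versions, and the program behind the values is not given in the sources used here. FPKM is the unit inferred for the deposited values, from the style of the file headers and from sums that differ between libraries. Where a symbol had several rows, that of the highest mean was used. Scaling used median-of-ratios factors (1.29, 1.33 and 0.58) over genes averaging at least 1 FPKM. Log2(scaled FPKM + 1) was tested with limma 3.58.1 (R 4.3.3), its prior variance following the mean. With 1 residual degree of freedom, it takes it that the tumour library varies like the lymphoid ones. Fragments were estimated from FPKM, the longest coding transcript (GENCODE M21, GRCm38) and depth, the latter from the commonest value of FPKM times length among low genes with 1 transcript. Counting error adds the Poisson variance of tumour fragments to the squared standard error.

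The members and lists were chosen with earlier results of these data known. Named from each list were its called genes, at most 4 in each direction, and its most abundant gene; Herc6, Mx2, Ifit2, Ifnar2, Tlr9, Ifnz, Ifna16 and markers were added after their values were seen. Older symbols in the files were matched through RefSeq names, for example Ifit1bl1, Shfl and Ifi27. Other settings were 4 scalings, pseudocounts of 0.1 and 5, no filter, a filter at 5 FPKM, summed rows, either lymphoid library left out, and counting error.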

Additional observations from a re-analysis of the deposited data

How the results depend on the processing

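Counts are given as higher and lower calls by limma over all tested genes, the 10 genes and the pathway lists, in that order, and were 1246 and 899, 3 and 2, and 9 and 5 with the settings of the text. As deposited they were 465 and 7620, 1 and 7, and 1 and 77. The median change of the 10 genes was then -0.52, with 0 genes at least 2-fold higher and 4 lower, and Ifit3 (-0.54), Oasl1 (-0.076), Irf7 (-0.50), Rsad2 (-0.61) and Bst2 (-0.50) changed sign. With library totals they were 4370 and 279, 6 and 0, and 31 and 0, the median was 1.18, the 2-fold counts were 6 and 0, and Ifit1 (0.35) changed sign. Without small RNA rows in the totals the median was 0.46 and Rsad2 was at -0.0033. Size factors over all genes above 0, chosen after seeing the data, gave 837 and 1926 calls, 5 and 18 in the lists, a median of 0.28, 2 genes at least 2-fold lower, and Rsad2 at -0.12; Ifit1 was then called lower and Oasl1 was not called. A pseudocount of 5 gave 5 higher calls among the 10 genes, with Irf7 and Bst2 added, and a median of 0.31. With no filter 7364 genes were called higher, 2 list genes lower, and Isg15 was not called (limma adjusted p = 0.07). At a mean of at least 5 FPKM, where Oasl1, Oasl2, Rsad2 and Mx1 were not tested, the counts were 211 and 191, 1 and 1, and 5 and 0. Counting error left 350 and 32, 1 and 0, and 2 and 0, and with the shortest coding transcript, chosen after seeing the data, 200 and 19, 0 and 0, and 1 and 0. Without one lymphoid library, a value with no test, the median lay between 0.47 and 0.61, with 2 to 3 genes at least 2-fold higher and 1 lower. The cause of these shifts was not tested beyond what each setting changes. No paired analysis was possible because the tumour group has 1 library. Tumour depth limits Usp18, Oasl1 and Rsad2 most, with about 8, 9 and 11 fragments.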
